A study of Morus alba with 35 samples.

Results

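The first hours of elicitation were followed in cultured white mulberry (Morus alba) cells, by setting elicited cells at 6 h beside elicited cells at 0.5 h. The comparison used 6 of the 35 samples of the series, chosen by treatment and time in their labels, with 3 libraries at 6 h and 3 at 0.5 h. The cells were a suspension derived from stem calli, kept in the dark. Both elicited groups had received 50 mM MBCD, a methylated cyclodextrin, together with 100 µM MeJA (methyl jasmonate) in ethanol, so the effects of the 2 agents cannot be separated. Control flasks received an equal volume of ethanol alone (2.1 µL for each mL). For the same step without elicitors they had 2 libraries at 6 h and 2 at 0.5 h. Control libraries of later times were used for levels at those times and for the shared estimate of the spread. In every group a suspension 14 days old had been filtered, washed with water and moved into fresh medium, and no library was taken before that transfer. Each replicate was 1 flask, and since no label states whether flasks had separate parent suspensions, p-values measure the spread between flasks. Gene identifiers stand in the deposited table without names or products. The labelled cell origin could therefore not be checked against marker genes, and genes are described by position, structure and level.

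Methyl jasmonate is a volatile plant hormone made from membrane fatty acids. Plant cells turn it into a jasmonate-amino acid conjugate whose receptor complex marks JAZ repressor proteins for destruction, which frees transcription factors of defence metabolism. Cyclodextrins are cyclic sugars with a hydrophobic cavity, and together with jasmonate they are used to make cultured cells, grapevine cells above all, produce stilbenes. The study is about oxyresveratrol, a stilbene of mulberry, and its stated aim is the effect of elicitation at different times.

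Within the first 6 h the transcriptome of the elicited cells changed broadly and in both directions. At 6 h, 4637 genes were higher than at 0.5 h, 23.1% of the 20107 tested, and 5872 were lower (29.2%; edgeR quasi-likelihood test on counts, Benjamini-Hochberg adjusted p below 0.05). Changes of at least 2-fold were found for 1672 higher genes (8.32%) and 2477 lower genes (12.3%). An increase of 8-fold or more was reached by 125 of them and a decrease of that size by 196. Called increases had a median log2 fold change of 0.78, and called decreases one of -0.87. In either direction 52.3% of the tested genes were called. In bulk RNA, fewer cells with a transcript and less of it per cell cannot be told apart.

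Most called genes were separated library by library. The levels (CPM, counts scaled to a common library size with TMM factors) of the 3 libraries at 6 h lay all above those of the 3 libraries at 0.5 h for 4140 of the 4637 higher genes, and all below for 5181 of the 5872 lower genes. Among all tested genes such separation was found upward for 4612 genes (22.9%) and downward for 5813 (28.9%). Called in each of the 6 fits that leave out 1 of these libraries were 3291 of the higher and 4122 of the lower genes. The balance of the directions depends on scaling: TMM gave a median log2 fold change over all tested genes of -0.08, and scaling by library size alone gave 0.05, with 5616 higher and 4602 lower genes. Directions therefore hold relative to the reference that TMM scaling sets. A fit of only the 6 libraries gave 3779 higher and 3864 lower genes.

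**Figure D1:**
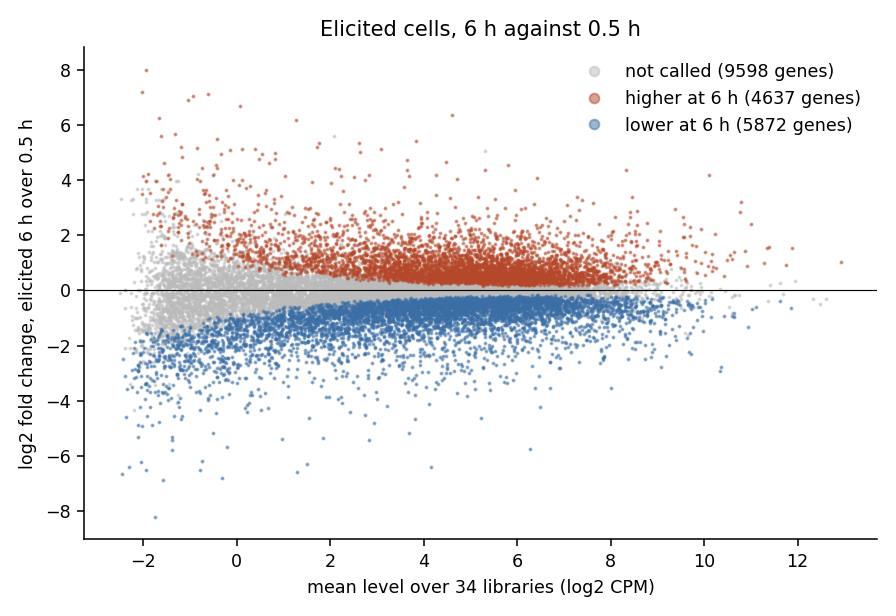
Log2 fold change of elicited cells at 6 h over 0.5 h (vertical axis) against the mean level over 34 libraries in log2 CPM (horizontal axis), 1 point per tested gene. The 4637 higher and 5872 lower genes occupy all levels.

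Calls without regard to size were more frequent among genes of high level in either direction. In the fifth of genes with the highest mean level, 33.9% were higher at 6 h and 32.2% lower, against 8.16% and 21.6% in the fifth with the lowest level. The mean was taken over all 34 libraries, most of them later than 0.5 h, so a lasting decrease itself lowers a gene's class, and no relation of the size of a decrease to level is drawn from these classes. On the 14 chromosomes the higher share ran between 19.2% on chromosome 3 and 25.7% on chromosome 9. The lower share ran between 21.9% of 1848 genes on chromosome 1 and 33.1% of 1461 genes on chromosome 10. These differences were not tested.

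Among 3507 higher candidates, the gene with the greatest fold increase was nearly silent at 0.5 h. Candidates were called genes without overlap between the libraries at 6 h and at 0.5 h. They also had a mean of at least 3 counts per library in each group and a mean log2 CPM of at least 2. Mal_HE_154X_1_chr012g002560, with 4 exons and 1205 exon bases on chromosome 12 (2623001 to 2625274, minus strand), stood at 176, 119 and 137 CPM in the 3 elicited libraries at 6 h, against 2.43, 1.13 and 1.65 CPM in those at 0.5 h. Every library at 6 h was far above every library at 0.5 h, though the choice itself excluded overlap. The log2 fold change was 6.36 (SE 0.39, adjusted p = 1.77e-12, edgeR quasi-likelihood). In controls it stood at 68.2 and 34.3 CPM at 6 h, against 2.635 and 2.95 CPM at 0.5 h, a log2 fold change of 4.20 (SE 0.44, adjusted p = 4.06e-08, same test). The elicited step exceeded the control step by 2.16 log2 units (SE 0.59), which did not pass the test of the difference (adjusted p = 0.0735, edgeR quasi-likelihood). From 6 to 12 h it fell again in elicited cells (log2 fold change -2.34, SE 0.27, adjusted p = 1.17e-07, same test), where it averaged 28.4 ± 5.35 CPM at 12 h and 3.57 ± 0.81 CPM at 72 h (SD, n = 4 each).

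Among the same candidates, the gene with the greatest gain in CPM was already abundant at 0.5 h. Mal_HE_154X_1_chr006g002290, with 5 exons and 1313 exon bases on chromosome 6 (2263113 to 2266340, minus strand), had 6505, 7495 and 8953 CPM at 6 h, against 2242, 2778 and 2879 CPM at 0.5 h. The groups did not overlap, as the choice required, and the log2 fold change was 1.54 (SE 0.13, adjusted p = 2.66e-10, edgeR quasi-likelihood). Controls also rose, with 6071 and 7027 CPM at 6 h against 3172 and 3379 CPM at 0.5 h (log2 fold change 1.00, SE 0.16, adjusted p = 1.43e-05, same test). The difference between the steps was 0.54 (SE 0.20, adjusted p = 0.198). At 24 h the gene stood at 4097 ± 334 CPM in elicited cells (SD, n = 4), against 1028 ± 13.4 CPM in controls (SD, n = 2).

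Among 3952 lower candidates, chosen by the same rules, the gene with the greatest fold decrease lost nearly all of its reads. Mal_HE_154X_1_chr012g011050, with 2 exons and 403 exon bases on chromosome 12 (12130604 to 12137123, minus strand), had 1.58, 1.89 and 2.60 CPM at 6 h, against 71.7, 146 and 298 CPM at 0.5 h. The 3 libraries at 0.5 h differed from each other by several times, yet all lay far above those at 6 h, where the choice excluded overlap. The log2 fold change was -6.40 (SE 0.50, adjusted p = 7.98e-11, edgeR quasi-likelihood). In controls it was -3.72 (SE 0.57, adjusted p = 1.21e-05), with 1.63 and 2.74 CPM at 6 h and 26.7 and 30.5 CPM at 0.5 h. The difference between the steps was -2.68 (SE 0.76) and did not pass the test (adjusted p = 0.0895). This gene shares 168 exon bases with a gene on the opposite strand, so some reads may belong to that partner. The partner had 496, 550 and 580 counts at 6 h and 640, 605 and 709 counts at 0.5 h, and its log2 fold change was -0.39 (SE 0.16, adjusted p = 0.0364, same test).

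The greatest loss in CPM among the lower candidates was that of Mal_HE_154X_1_chr012g013420, with 4 exons and 2372 exon bases on chromosome 12 (14228589 to 14231867, minus strand). It had 3779, 2417 and 2718 CPM at 6 h, against 8658, 6748 and 7128 CPM at 0.5 h. The groups did not overlap, as the choice required, and the log2 fold change was -1.34 (SE 0.38, adjusted p = 0.0042, edgeR quasi-likelihood). The control libraries at 6 h, at 3100 and 6420 CPM, lay far apart from each other, against 7043 and 7293 CPM at 0.5 h, and the control step was not called (-0.59, SE 0.46, adjusted p = 0.329). The difference between the steps was -0.75 (SE 0.59, adjusted p = 0.584). The gene fell further from 6 to 12 h in elicited cells (log2 fold change -1.50, SE 0.35, adjusted p = 0.000915, same test). It averaged 1052 ± 687 CPM there at 12 h and 286 ± 58.8 CPM at 72 h (SD, n = 4 each).

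**Figure D2:**
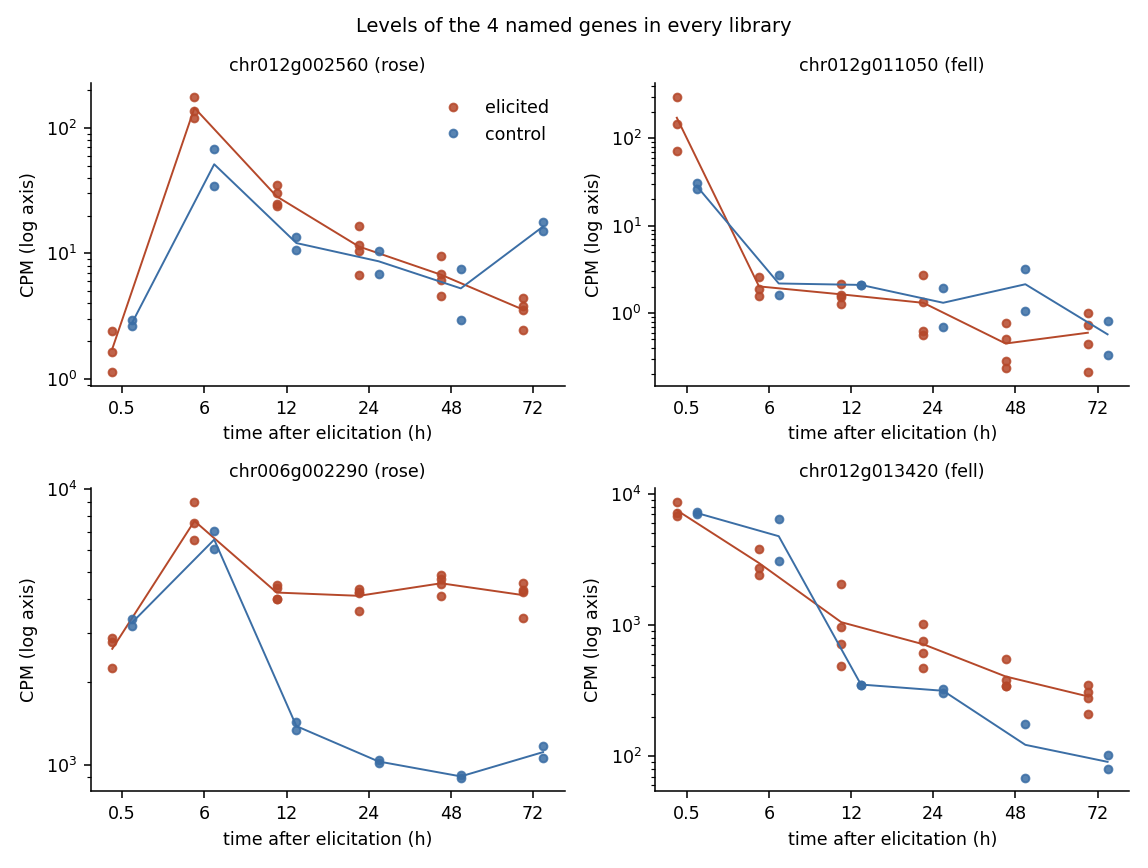
CPM on a log axis in every library of the 4 named genes, with elicited libraries left of control libraries at each time and lines through the group means; times are evenly spaced, not to scale. In elicited cells chr012g002560 peaks at 6 h with 119 to 176 CPM, and chr012g011050 lies between 1.58 and 2.60 CPM at 6 h.

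The genes with the greatest gains and losses in CPM are described by their share of all counts in each library. The 10 genes with the greatest gain in CPM held 2.57, 3.33 and 3.72% of all counts in the elicited libraries at 6 h, against 0.841, 0.932 and 0.927% at 0.5 h. All 10 were also called higher in controls, where they held 2.93 and 3.40% at 6 h, against 0.956 and 1.01% at 0.5 h. None passed the test of the difference between steps, but only 0.845% of all tested genes did. The 10 genes with the greatest loss in CPM held 2.765, 2.09 and 2.35% at 6 h, against 4.54, 4.74 and 5.29% at 0.5 h in elicited cells. Of these 10 only 7 were called lower in elicited cells and 3 in controls, where they held 2.36 and 2.85% at 6 h, against 3.905 and 3.95% at 0.5 h, and 5 had a single exon. The 100 genes with the greatest loss in CPM held 11.3, 8.13 and 8.89% of counts at 6 h, against 18.7, 18.0 and 20.1% at 0.5 h. Of these 100 genes 84 were called lower in elicited cells and 56 in controls, and 25 had a single exon. The genes were chosen by their change in the elicited libraries, so only their control shares are independent of the choice.

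The same step in controls went mostly the same way. Between 0.5 and 6 h in controls, 3379 genes rose (16.8%) and 3914 fell (19.5%), together 36.3% of those tested, in a comparison of 2 libraries with 2 that shares no library with the elicited step. Of these changes 1219 upward (6.06%) and 1879 downward (9.35%) were at least 2-fold. Of the 4637 genes that rose in elicited cells, 2724 (58.7%) rose in controls and 29 fell. Of the 5872 that fell, 3178 (54.1%) fell in controls and 9 rose. Seen from the controls, 80.6% of their rising genes rose in elicited cells and 81.2% of their falling genes fell. The sign was shared by 79.0% of all tested genes, by 92.5% of the genes that rose in elicited cells and by 92.8% of those that fell.

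Across genes, the log2 fold changes of the elicited and the control step correlated with a Pearson r of 0.705 (Spearman 0.730), and with 0.840 (0.832) over the 6730 genes whose mean level reached a log2 CPM of 5. Genes are not independent replicates, and no p-value is attached. Which treatment showed the larger step depended on where the genes were chosen. Genes that rose in elicited cells had medians of 0.78 in elicited cells and 0.58 in controls, whereas those that rose in controls had 0.71 in elicited cells and 0.80 in controls. Falling genes gave -0.87 in elicited cells and -0.62 in controls when chosen in elicited cells, and -0.87 and -0.97 when chosen in controls. A larger step in either treatment was therefore not established by these medians.

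Genes whose step differed between the treatments were few. The test of the difference called 96 genes with a more positive step in elicited cells (0.477% of those tested) and 74 with a more negative one (0.368%; edgeR quasi-likelihood, adjusted p below 0.05), while 2941 genes had an unadjusted p below 0.05. Over the 6730 genes of high level the median size of the difference was 0.22 log2 units and its median SE 0.19, so differences of moderate size could go uncalled, and the remaining genes are not shown to respond alike. Single libraries decided these counts. More positive and more negative steps numbered 31 and 19 without elicited 0.5 h replicate 3, 23 and 9 without control 0.5 h replicate 1, and 30 and 10 without control 0.5 h replicate 2. Leaving out elicited 0.5 h replicate 1 gave 176 and 176, and leaving out replicate 2 of that group gave 163 and 137. Among the 6 h libraries, leaving out replicate 2 of the controls gave 41 and 24, and leaving out their replicate 1 gave 61 and 64. Leaving out elicited replicate 3 at 6 h gave 52 and 37, and leaving out elicited replicate 1 at 6 h gave 81 and 48. Called in all 10 such fits were 17 of the 96 and 3 of the 74 genes.

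**Figure D3:**
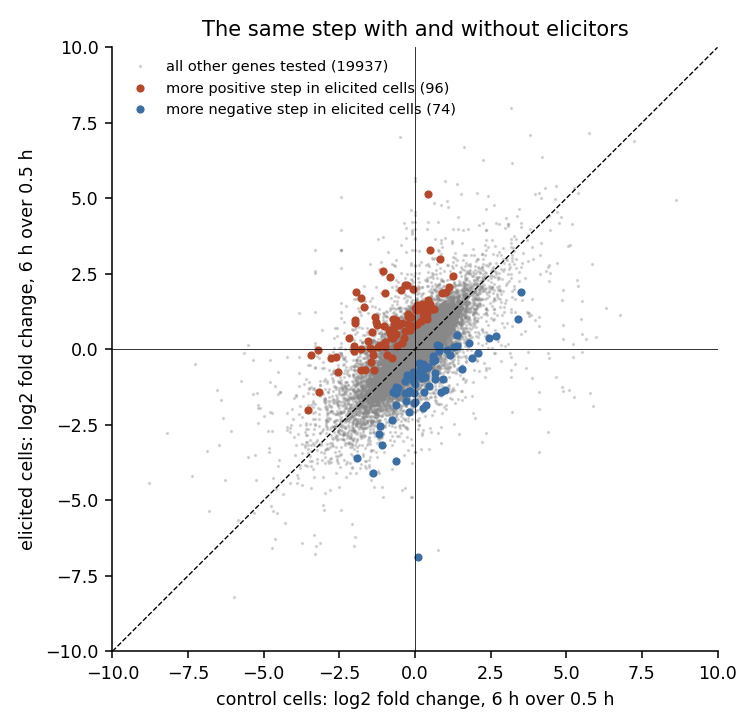
Log2 fold change of 6 h over 0.5 h in elicited cells (vertical axis) against the same step in controls (horizontal axis), 1 point per tested gene, with a dashed line of equal steps. Most genes lie along the line, and the 96 and 74 genes whose steps differed by the test are coloured.

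The 96 genes with a more positive step reached the difference in several ways. Their median step was 0.84 in elicited cells and -0.67 in controls, and the median difference was 1.35 log2 units. Of the 96, 67 were called higher in elicited cells, among them 23 called lower in controls, 33 not called there and 11 called higher in both. A further 21 fell in controls and were not called in elicited cells, and 8 fell in both. At 6 h the elicited libraries lay above both control libraries for 89 of the 96. At 0.5 h the group mean in elicited cells lay below that in controls for 79, so the difference of steps included an opposite gap at the start. The gap at 6 h was the larger of these gaps for 62 genes. Both gaps are parts of the contrast that chose the genes, so the choice favours them. The share of such gaps among all tested genes is not given here.

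The 74 genes with a more negative step were in most cases called lower in elicited cells. Their median step was -0.94 in elicited cells and 0.18 in controls, and 57 of them were called lower in elicited cells. Of the 57, 39 were not called in controls, 13 fell there too and 5 rose. A further 14 rose in controls and were not called in elicited cells, and 3 rose in both. At 6 h the elicited libraries lay below both control libraries for 67 of the 74, and at 0.5 h the mean in elicited cells lay above that in controls for 67. All of these features follow in part from the contrast that chose the genes, and the share of such gaps among all tested genes is not given here. Neither set formed runs of 3 or more neighbouring genes.

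Decreases were more common among short genes and increases among long genes, although most genes of either kind were not called in that direction. Genes of up to 500 exon bases had a median log2 fold change of -0.41 in elicited cells, those of 500 to 1000 bases -0.33, those of 2000 to 3000 bases 0.04 and those over 5000 bases 0.31. Of the genes over 5000 bases 39.4% were called higher and 12.7% lower, against 10.3% and 33.4% of genes up to 500 bases. In controls the medians were -0.23 up to 500 bases and 0.05 over 5000 bases. Among the 6730 genes of high level the median was -0.53 up to 500 and 0.36 over 5000 bases in elicited cells. Genes with 6 or more exons had -0.27 up to 500 bases (13 genes), -0.29 for 500 to 1000 and 0.34 over 5000 bases. Among single-exon genes the order was broken: the median was -0.54 up to 500 bases, -0.19 for 1500 to 2000, -0.27 for 2000 to 3000 and 0.07 over 5000 bases, where 19.6% of 56 genes were called higher and 19.6% lower.

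The size of this relation moved with single libraries. Genes over 3000 bases minus genes up to 1000 bases, taken as medians of log2 CPM against the mean of the 10 libraries of both times and treatments, stood at 0.056, 0.273 and 0.114 log2 units in the elicited libraries at 6 h, against -0.113, -0.354 and -0.831 at 0.5 h. Controls stood at 0.304 and 0.324 at 6 h, against 0.116 and 0.044 at 0.5 h. The times did not overlap in either treatment, but elicited 0.5 h replicate 3 lay well below every other library. For the elicited step long genes exceeded short ones by 0.56 log2 units, and by 0.36 without that replicate, while the control step gave 0.25. The 3 libraries against 3 cannot give an exact two-sided permutation p below 0.1, and p was 0.1. The labels give an RNA integrity number of 7 or more as their criterion of quality but no value per library, and the part of RNA quality in this relation was not tested. A smooth length trend was removed in each library as an alternative chosen after seeing the data. It gave 4829 higher and 5414 lower genes, and 102 genes with a more positive and 85 with a more negative step than in controls. Of the 10509 genes called without this removal, 9147 kept their call and direction. Removing the trend by itself draws the length classes together. Of genes up to 1000 bases, 19.5% were now called higher and 24.5% lower, against 11.5% and 36.6% before. Of genes over 3000 bases, 26.5% were now called higher and 27.1% lower, against 37.7% and 16% before.

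**Figure D4:**
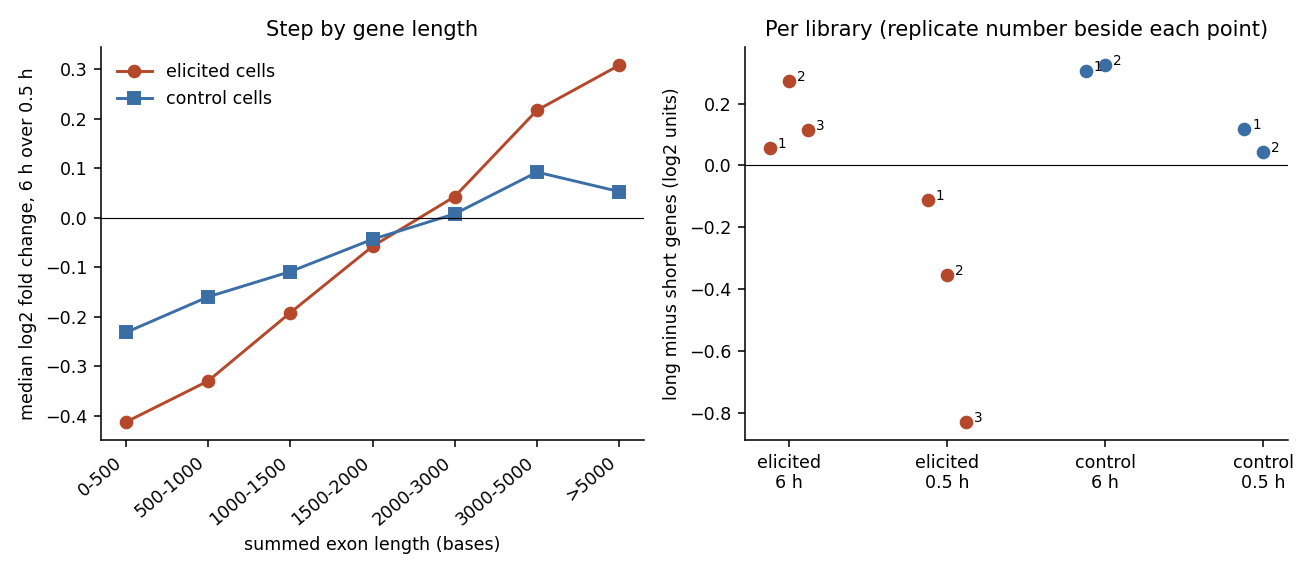
Left, median log2 fold change of 6 h over 0.5 h by summed exon length in elicited and control cells. Right, median of long minus short genes in each library in log2 units, where elicited 0.5 h replicate 3 lies lowest at -0.831.

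Genes with a single exon were scarce among the increases and took a smaller share of the counts at 6 h. They made up 10.7% of genes that rose, 17.5% of genes that fell and 17.2% of genes not called, against 15.8% of all tested, so their share among falling genes was near that of the uncalled genes. Among changes of at least 2-fold they made up 16.9% of the increases, above the share of all tested genes, and 26.6% of the decreases. Their share of all counts was 10.6, 9.35 and 10.35% in the elicited libraries at 6 h, against 12.85, 14.2 and 14.3% at 0.5 h. In controls it was 8.73 and 9.78% at 6 h, against 11.4 and 12.7% at 0.5 h. The times did not overlap in either treatment (elicited cells 10.1 ± 0.65% and 13.8 ± 0.82%, SD, n = 3 each, exact two-sided permutation p = 0.1, the smallest this design allows). Higher genes had a median of 6 exons and 1935 exon bases, and lower genes 4 exons and 1389 bases. Library by library, 17903 ± 45.6 genes had at least 10 counts at 6 h and 18109 ± 159 at 0.5 h (SD, n = 3 each, exact permutation p = 0.2), and the 100 most counted genes held 18.9 ± 1.00% and 21.6 ± 1.02% of counts (p = 0.1).

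Neighbouring genes that were both called mostly had the same direction. Among adjacent tested pairs that share no exon bases and were both called, the direction was the same for 62.1% of 2014 pairs on the same strand, 58.1% of 891 divergent pairs, whose starts face each other, and 54.0% of 904 convergent pairs. The split of all calls into higher and lower gives 50.7% by itself, and the differences between the kinds of pair were not tested. The correlation of their log2 fold changes across pairs was 0.190, 0.099 and 0.065 in this order, without a test. Similar gene copies often lie in tandem on the same strand, and how reads that fit several genes were counted is not given in the sources used here, so copies in such runs may share reads.

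Runs of at least 5 adjacent genes that all changed at least 2-fold in the same direction numbered 4, 1 higher and 3 lower. The longest was a run of 9 lower genes on chromosome 6 (13773208 to 13798812), 8 with a single exon and 1 with 2, each of 438 to 874 exon bases. Their summed level was 4944, 1824 and 2332 CPM in elicited cells at 6 h, against 14490, 12230 and 19820 CPM at 0.5 h. In controls it was 1715 and 4368 CPM at 6 h, against 8654 and 9306 CPM at 0.5 h. Levels at 6 h lay below those at 0.5 h in both treatments, although elicited 6 h replicate 1 and control 6 h replicate 2 kept more than their partners. The log2 fold changes of the 9 genes lay between -3.58 and -2.12 in elicited cells and between -2.78 and -0.72 in controls, where 5 were called lower. None passed the test of the difference, but only 0.845% of all tested genes did. Of the 9 genes, 2 share exon bases with another gene.

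The run of higher genes lay on chromosome 8 (3582848 to 3635015), with 5 genes on the minus strand, 4 of them with 2 exons. Their summed level was 5354, 6885 and 8520 CPM in elicited cells at 6 h, against 2946, 3882 and 3091 CPM at 0.5 h, and 3405 and 4866 CPM in controls at 6 h, against 1651 and 2396 CPM at 0.5 h. Levels rose in both treatments without overlap of the times, and 4 of the 5 were called higher in controls. The other lower runs, of 5 genes each, lay on chromosome 1 (58143492 to 58183311) and chromosome 14 (8092305 to 8136845). On chromosome 1 the summed level was 326, 149 and 125 CPM in elicited cells at 6 h, against 563, 833 and 896 CPM at 0.5 h, and all 5 genes fell in controls. On chromosome 14 it was 144, 138 and 156 CPM at 6 h, against 337, 383 and 342 CPM at 0.5 h, and 4 of the 5 fell in controls. None of these 15 genes passed the test of the difference, but only 0.845% of all tested genes did.

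The next elicited step was measured with 4 libraries at 12 h and the same 3 at 6 h. Between 6 and 12 h, 4700 genes were called higher (23.4%) and 4072 lower (20.3%), together 43.6% of those tested, and 5.92% and 7.07% were called with at least 2-fold changes. Among the 6730 genes of high level the median absolute log2 fold change was 0.44 from 0.5 to 6 h and 0.35 from 6 to 12 h in elicited cells, with median SEs of 0.12 and 0.11, and 0.36 with an SE of 0.15 in the control step.

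In later libraries the genes that had risen stood higher in elicited than in control cells. The 1672 genes at least 2-fold higher at 6 h had a median level, relative to the elicited mean at 0.5 h, of 1.47 ± 0.06 log2 units in elicited cells at 6 h (SD, n = 3). The 12 h libraries gave 1.16 ± 0.06 and the 24 h libraries 1.00 ± 0.03, and the same genes stood at 1.11 ± 0.07 after 48 h and 1.15 ± 0.05 after 72 h (SD, n = 4 each). In controls the median was 0.22 ± 0.01 at 0.5 h, after which the 6 h libraries gave 1.34 ± 0.01 and the 12 h libraries 0.96 ± 0.02. The control libraries of 24 h gave 0.60 ± 0.02, those of 48 h 0.41 ± 0.00 and those of 72 h 0.46 ± 0.09 (SD, n = 2 each). Elicited and control libraries did not overlap at any of these times, and the gap was not tested. The elicited libraries at 0.5 and 6 h chose these genes, which favours a gap from controls at those times. A set chosen by its rise in controls was not followed.

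The genes that had fallen stood low later in both treatments. The 2477 genes at least 2-fold lower at 6 h stood at -1.49 ± 0.13 in elicited cells at 6 h (SD, n = 3), -1.42 ± 0.03 at 12 h and -1.62 ± 0.01 at 72 h (SD, n = 4 each). In controls they stood at -0.29 ± 0.01 at 0.5 h, and then at -1.45 ± 0.10, -1.40 ± 0.00 and -1.48 ± 0.04 at these times (SD, n = 2 each). The libraries from 12 h on were not used to choose the genes, but the 0.5 h libraries were, which favours a distance from 0.

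The 96 genes with a more positive step stood at 0.77 ± 0.04 in elicited cells at 6 h (SD, n = 3), against -0.18 ± 0.00 in controls, which had stood at 0.50 ± 0.04 at 0.5 h (SD, n = 2 each). At 48 h, in libraries that did not choose them, they stood at 0.28 ± 0.10 in elicited cells (SD, n = 4), against -0.98 ± 0.03 in controls (SD, n = 2). The gap was widest at this time. At 12 h the values were 0.19 ± 0.13 and -0.35 ± 0.02, and at 24 h 0.19 ± 0.07 and -0.68 ± 0.03. At 72 h elicited cells stood at -0.03 ± 0.05 and controls at -0.69 ± 0.07. The 74 genes with a more negative step stood at -0.95 ± 0.09 in elicited cells at 6 h, against -0.35 ± 0.08 in controls, which had stood at -0.43 ± 0.02 already at 0.5 h. At 48 h they stood at -0.41 ± 0.10 in elicited cells and -0.38 ± 0.13 in controls (SD, n = 4 and n = 2), and these libraries overlapped. Those of 12 h and 72 h overlapped too. The 24 h libraries did not, with -0.34 ± 0.06 in elicited cells and -0.19 ± 0.01 in controls.

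**Figure D5:**
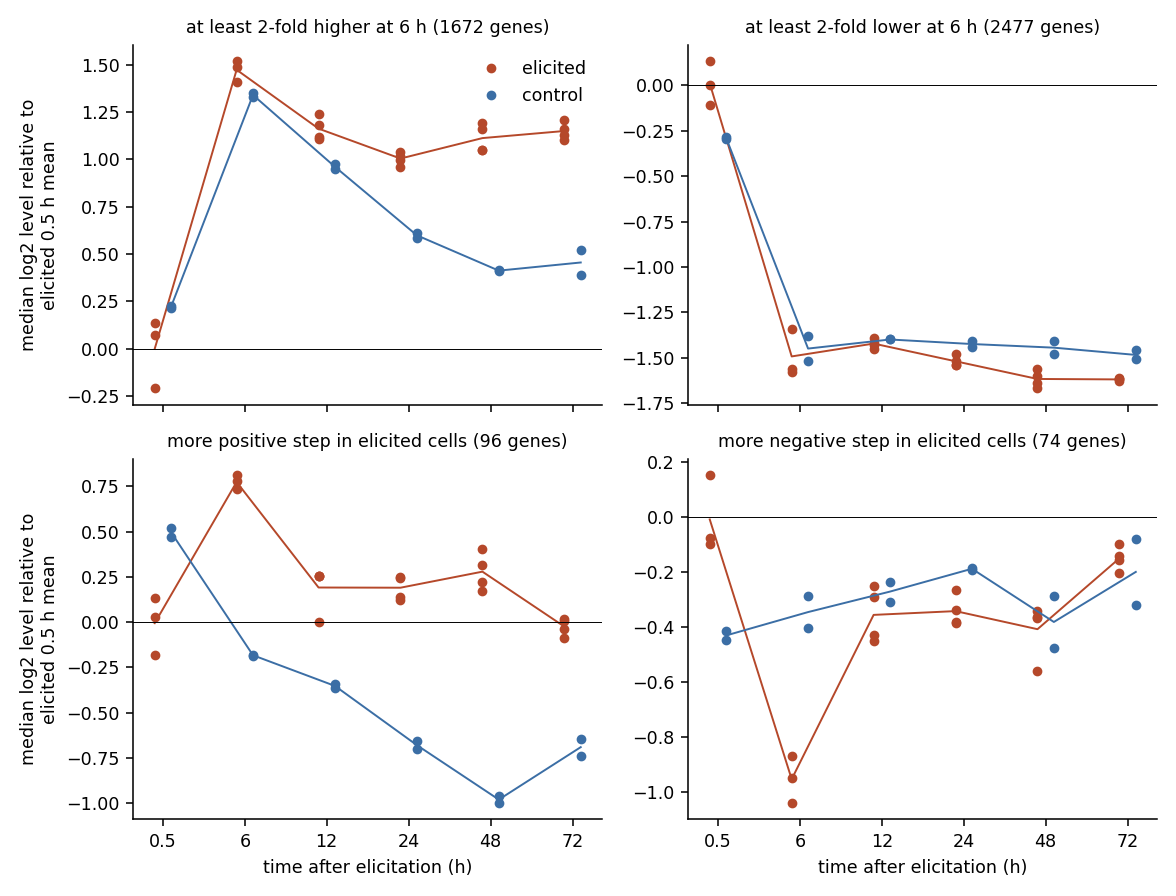
Median log2 level relative to the elicited mean at 0.5 h of 4 gene sets in every library, with elicited libraries left of control libraries at each time and lines through the group means; times are evenly spaced, not to scale. Genes at least 2-fold higher at 6 h stay near 1.15 in elicited cells at 72 h, against 0.46 in controls, while genes at least 2-fold lower stay low in both.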

How the data were processed

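The authors deposited raw counts, whole numbers of reads per gene without normalization, for 31401 genes in 34 libraries of 12 groups. Per the submitters' processing notes fastp, STAR and featureCounts were used, and a stranded mRNA kit was used per the labels' protocols. Not given in the sources used here were versions, genome build, annotation, strand setting and the treatment of reads that fit several genes. Positions follow the deposited table and count from 1. The pooled long-read sample was not analysed here. Totals were 17632370 to 17975718 counts in the 6 libraries and 17191217 to 18897243 in all 34. No 2 libraries of a compared group differed as little as sampling noise (chi-square per degree of freedom at least 10.9).

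One quasi-likelihood model (R 4.3.3, edgeR 4.0.16) with a mean per group was fitted to all 34 libraries after filterByExpr (minimum count 10) and TMM scaling, so that the control and later libraries share the estimate of the spread. It was tested on simulated data. P-values were adjusted by Benjamini-Hochberg over the 20107 genes tested. Log2 CPM used a prior count of 2, and SEs are the log2 fold change over the root of F. Named genes were, per direction, the first by fold and the first by CPM difference among non-overlapping called genes with a mean count of at least 3 per group and a mean log2 CPM of at least 2 (3507 higher, 3952 lower). Gene lists planned by name could not be used without names. Alternatives were library size scaling, RLE factors, DESeq2 1.42.0, no filter, fewer libraries, each replicate left out, a replicate block and a length trend. The samples, sets and tests were chosen with earlier results of these data known.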

Additional observations from a re-analysis of the deposited data

Results flagged for a closer look

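The step from 0.5 to 6 h differed between elicited and control cells for 96 genes with a more positive and 74 genes with a more negative step in elicited cells (edgeR quasi-likelihood test of the difference, adjusted p below 0.05 over 20107 genes). The groups of this test, of 3 and 2 libraries, were too small to be searched for single outlying libraries.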

How the results depend on the processing

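The counts of the elicited step moved little. Without 1 library at a time they were 3976 to 4656 higher and 5108 to 5693 lower, 1409 to 1893 at least 2-fold higher and 2192 to 2702 at least 2-fold lower. Library size scaling, RLE factors, DESeq2 and no filter on low counts also stayed within 1.5 times. The 5872 lower genes became 3864 with only the 6 libraries, where 18198 genes were tested, and 3629 with a replicate block in that fit. The 4 named genes kept their direction and their call in every alternative. Control step counts were 2360 to 2729 higher and 2756 to 2924 lower without 1 library, and the next elicited step gave 4113 to 4777 and 3227 to 4362.

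The difference of steps depended on the settings. More positive steps, 96 in the report, ranged from 23 to 176 without 1 library, and were 198 with DESeq2, 195 without 2 libraries that stand apart (elicited 12 h replicate 4 and 48 h replicate 3) and 30 with only the 10 libraries of the contrast. More negative steps, 74 in the report, ranged from 9 to 176, and were 173 with DESeq2, 162 without those 2 libraries, 48 with library size alone and 10 with only the 10 libraries. With a replicate block they were 64 and 22. The cause was not tested.

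Same-numbered elicited libraries did not deviate together (correlations -0.03, 0.05 and 0.00), and replicate 1 at 6 h correlated best with replicate 3 at 0.5 h (0.11), so the numbers were not taken as pairs. The block used the numbers in the sample titles. In controls these do not follow the numbers in the sample descriptions, where 3 is replicate 1 at 0.5 h and replicate 2 at 6 h, so the blocked values for the difference of steps rest on title numbers alone. Restricting the called genes to 2-fold changes moved the single-exon share to 16.9% of the higher and 26.6% of the lower genes. Counting genes with at least 1 count in place of 10 changed no direction. At this depth 3 counts over a group, the limit that a count of 0 allows, correspond to 0.0562 CPM at 6 h and 0.0558 CPM at 0.5 h in elicited cells, which covers counting error only.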

Other observations

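Switching between no read and clear expression was rare. With no read in any elicited library at 0.5 h and at least 10 counts in each at 6 h there was 1 gene, and with the reverse pattern 1 gene, both with a single exon and both chosen after their values were seen. Among the 6 times in elicited cells, 2283 of the 4637 rising genes had their highest mean at 6 h (3928 of all 20107 genes tested), and 2897 of the 5872 falling genes their lowest (4871 of all). The calls used the 6 h libraries, so these counts only describe the sets.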
